A study of Mus musculus with 16 samples.

Results

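HCT116 is a human colorectal carcinoma cell line. Extracellular miRNAs in its culture medium were compared between cultures given 6 Gy of X-rays and unirradiated cultures (0 Gy). The comparison used 8 of the 16 arrays of the series, 4 at each dose, chosen by the dose in their titles. Each array held RNA from the supernatant of a separate culture, collected 72 h after exposure at a high dose rate in RPMI1640 with 10% fetal bovine serum, and 100 ng of RNA was labelled with Cy3. The unirradiated cultures had the same medium and time, and both groups come from this 1 line. No array held medium without cells, so miRNAs from the serum and from the cells cannot be told apart. The labels name mouse as the organism, whereas HCT116 is of human origin, and the values are those of the array's probes for 1205 human miRNAs. All 4 arrays at 0 Gy lay on slide 1 and all 4 at 6 Gy on slide 2, and the slides were scanned separately. Dose and slide therefore cannot be told apart in any difference between 6 and 0 Gy.

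MicroRNAs are short RNAs that are cut from hairpin precursors and loaded into Argonaute proteins, which they guide to messenger RNAs, mostly through pairing of the seed at bases 2 to 8. Cells release some of them into the medium inside extracellular vesicles or bound to proteins. Ionizing radiation breaks DNA and can stop division or kill cells. In a supernatant, fewer releasing cells and less RNA from each cell cannot be told apart. Here each array had the same 100 ng of RNA and was scaled, so levels are relative to the other miRNAs of the array. A loss shared by all miRNAs, from fewer cells or less RNA per cell, would not show.

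No human miRNA sequence was used here. Of the 283 miRNAs tested, 89 share a name with a mouse miRNA in RefSeq (GRCm38.p6), among them 29 of the 55 that passed the test. The sequences that follow are those of the mouse miRNAs of the same names, 5′ to 3′, with the seed in capitals. They are shown because the let-7 group, miR-25-3p with miR-92b-3p, the miR-27 pair and the miR-196 pair each share a seed and passed together, and because the last 4 had large falls or the largest rise.
let-7b-5p: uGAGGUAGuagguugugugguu
let-7c-5p: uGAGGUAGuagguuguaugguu
let-7i-5p: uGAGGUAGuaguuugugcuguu
miR-25-3p: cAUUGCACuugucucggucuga
miR-92b-3p: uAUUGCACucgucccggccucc
miR-27a-3p: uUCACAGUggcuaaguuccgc
miR-27b-3p: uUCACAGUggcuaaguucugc
miR-196a-5p: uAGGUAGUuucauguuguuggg
miR-196b-5p: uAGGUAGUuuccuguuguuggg
miR-125b-5p: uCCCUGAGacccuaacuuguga
miR-29a-3p: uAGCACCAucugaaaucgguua
miR-100-5p: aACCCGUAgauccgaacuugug
miR-30c-1-3p: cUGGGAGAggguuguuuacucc
The mouse let-7b-5p and let-7c-5p differ at 1 of 22 bases, and miR-27a-3p and miR-27b-3p at 1 of 21. Probes for such pairs may cross-hybridise, so their members may not be separate results.

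On the 8 arrays, between 259 and 358 human miRNAs were detected. The number was 327.5 ± 22.5 at 0 Gy and 296.5 ± 28.4 at 6 Gy (SD, n = 4 each; exact two-sided permutation p = 0.143, adjusted 0.343 over 3 measures of the arrays). Before scaling, the 75th percentile of the probes detected on all 16 arrays was 8.84 ± 0.35 and 9.09 ± 0.44 on the log2 scale (SD, n = 4 each; exact two-sided permutation p = 0.314, adjusted 0.343). Agilent's labelling spike-in, a pair of RNAs added to the labelling reaction, read 10.1, 8.30, -2.32 and 9.31 on replicates 1 to 4 at 0 Gy, on the log2 scale. It read 1.67, 5.50, 5.95 and -2.32 on replicates 1 to 4 at 6 Gy (exact two-sided permutation p = 0.343, adjusted 0.343). The value of -2.32, on 0 Gy replicate 3 and 6 Gy replicate 4, is what the software writes when neither of the 2 RNAs is detected. On 6 Gy replicate 1, 1 of the 2 was undetected. With 4 arrays a dose these exact tests cannot give a p under 0.0286.

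let-7b-5p, miR-21-5p, miR-125b-5p and miR-29a-3p were among the miRNAs lower at 6 Gy, and a smaller set was slightly higher. Of 283 tested miRNAs, 55 (19.4%) passed an adjusted p of 0.05 in limma's moderated test, 38 (13.4%) lower and 17 (6.01%) higher. The 38 falls had a median of -1.29 and reached -3.41 on the log2 scale, and 26 of them exceeded 1. The 17 rises had a median of 0.45 and a maximum of 0.84. The median over all tested miRNAs was 0.12. Levels are log2 of the signal divided by the 75th percentile of its array, with a floor of -4.60. A miRNA was tested if 1 of its probes was detected on each of the 4 arrays of any dose in the series. For 21 of the 38 falls, at least 1 array at 6 Gy lay at the floor, which limits how large a difference can be measured. The probes of 6 falls passed the filter through the 0 Gy arrays alone, where these miRNAs are high, so the filter favours a fall for miR-30e-5p, miR-425-5p, miR-1274a_v16.0, miR-27b-3p, miR-92b-3p and miR-539-5p. Likewise miR-3161, among the rises, passed through the 6 Gy arrays alone. In the 28 falls and 14 rises with more than 1 passing probe, all probes differed in the called direction. Each call is made on the mean of these same probes, so agreement in sign is partly built in. The sizes could differ, with -0.14 and -2.24 for the probes of miR-1290 and -0.55 and -1.93 for those of miR-4284.

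**Figure D1:**
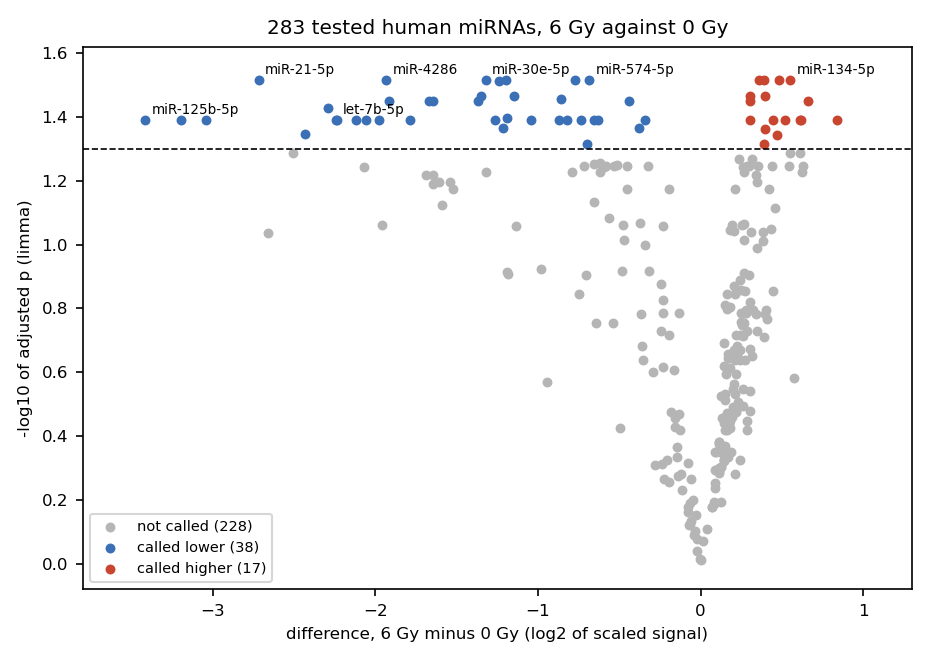
Each point is 1 of the 283 tested human miRNAs, with the log2 difference of scaled signal (6 Gy minus 0 Gy) on the x axis and -log10 of limma's adjusted p on the y axis. The dashed line marks an adjusted p of 0.05, the 38 miRNAs called lower (blue) spread down to -3.41, and the 17 called higher (red) lie between 0.30 and 0.84.

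The calls depended on single arrays. Leaving out 0 Gy replicate 1, 2 or 4, or 6 Gy replicate 1 or 4, limma called 0 miRNAs (90, 98, 91, 104 and 91 had an unadjusted p under 0.05). Leaving out 0 Gy replicate 3, it called 143 (75 lower, 68 higher), which included all 55. The count was 78 when 6 Gy replicate 2 was left out and 19 when 6 Gy replicate 3 was. Leaving 1 array of 2 or 10 Gy out of the fit changes only its estimate of spread, and gave 11 to 73 calls. Among these, 2 Gy replicate 1 and 10 Gy replicate 3 each left 11, 10 Gy replicate 1 left 17, and 2 Gy replicates 3 and 4 each left 24. With the 8 arrays of 0 and 6 Gy alone, limma called 0 (75 had an unadjusted p under 0.05). All 55 kept their sign when any 1 array of 0 or 6 Gy was left out. They were picked from these same arrays, which favours an unchanged sign. In the fits without a 2 or 10 Gy array, or with the 8 arrays alone, the differences are the same by construction.

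The split between lower and higher calls moved with the scaling. It was 28 lower and 155 higher with scaling over all human probes, 36 and 73 with quantile normalization, and 39 and 72 with Agilent's total signal per miRNA. In the absence of scaling limma called 0 (62 had an unadjusted p under 0.05). Relative to the fit described, these 4 settings moved the median difference of all miRNAs by 0.41, 0.10, 0.18 and 0.25. All 55 kept their sign under them, except that miR-539-5p and miR-663a turned positive with scaling over all human probes.

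**Figure D2:**
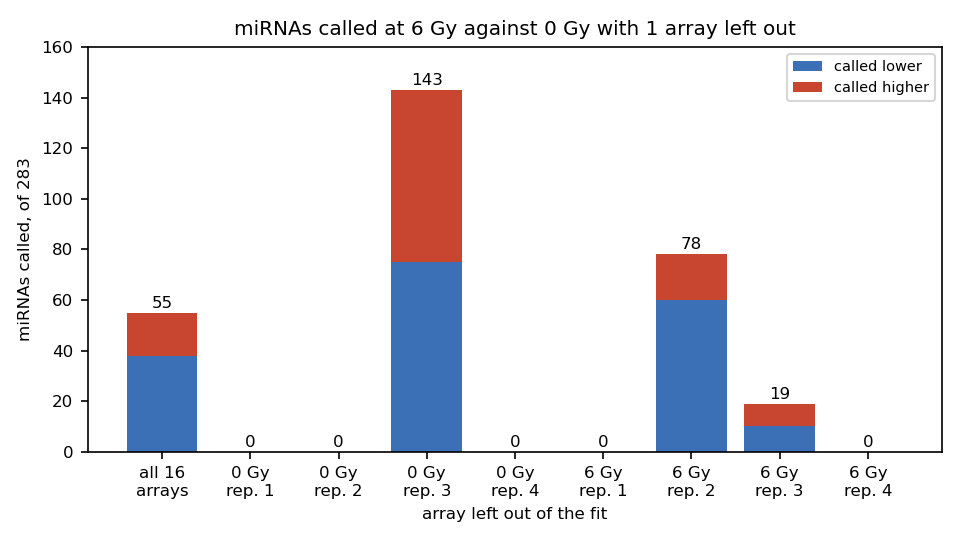
Bars give the number of miRNAs called lower (blue) and higher (red) of 283 at 6 Gy against 0 Gy, with all 16 arrays and with each of the 8 arrays of the comparison left out. The count is 55 with all arrays, 143 when 0 Gy replicate 3 is left out, and 0 for 5 of the 8.

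All 3 tested members of the let-7 family, which restrains proliferation and growth-promoting transcripts in differentiated cells, fell, against 13.4% called lower over all tested miRNAs. With spike-in level as a covariate 1 of the 3, let-7b-5p, passed. let-7b-5p read 0.58, 1.49, -1.39 and 1.07 on replicates 1 to 4 at 0 Gy and -2.30, -0.29, -1.62 and -3.01 on those at 6 Gy. Replicates 1, 2 and 4 at 0 Gy lay above every 6 Gy array, and replicate 3 lay within the 6 Gy range. The fall was 2.24 ± 0.65 (SE; limma adjusted p = 0.0407). let-7c-5p fell by 2.24 and let-7i-5p by 1.92, with the arrays arranged in the same way. The passenger strand let-7b-3p, from the other arm of the let-7b hairpin, differed by 0.16 ± 0.15 (SE; adjusted p = 0.38), with a 95% interval of -0.16 to 0.49. The difference between the arms was not tested. Another 6 names of the family were not tested, of which 4 were detected on none of the 8 arrays.

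miR-125b-5p, a homologue of lin-4 of worms that is often encoded near let-7 and miR-100, had the largest fall of all. It read 0.73, 0.91, -3.43 and 1.12 at 0 Gy and -4.60, -2.14, -2.99 and -4.60 at 6 Gy, where -4.60 is the floor. The fall was 3.41 ± 1.06 (SE; limma adjusted p = 0.0407). miR-100-5p, which targets MTOR, read -0.48, -0.56, -3.23 and -0.22 at 0 Gy and -4.49, -2.55, -2.58 and -4.60 at 6 Gy. It fell by 2.43 ± 0.79 (SE; adjusted p = 0.045). In both miRNAs the groups overlapped through 0 Gy replicate 3 alone.

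The cluster of miR-17 and its paralogues promote proliferation and are raised in many carcinomas. In the list of their main arms, all 5 tested members were below 0 and 2 fell (13.4% over all tested). With the spike-in covariate 0 of the 5 passed. Outside the list, the tested arm miR-18b-3p differed by 0.18 (limma adjusted p = 0.446). miR-25-3p read 0.25, 0.48, -3.29 and 0.41 at 0 Gy and -4.26, -2.54, -2.92 and -4.60 at 6 Gy. It fell by 3.04 ± 0.93 (SE; limma adjusted p = 0.0407), and 0 Gy replicate 3 lay within the 6 Gy range. miR-92b-3p, which has the same seed, fell by 0.44 ± 0.12 (SE; adjusted p = 0.0353) without overlap, but 3 of its 4 arrays at 6 Gy were at the floor. miR-92a-3p, another with this seed, read 0.73, 1.64, -0.10 and 1.09 at 0 Gy and -0.027, 0.67, 0.058 and -1.87 at 6 Gy, with overlap, and its difference of -1.13 did not pass (adjusted p = 0.0871). Neither did those of miR-17-5p (-1.65, adjusted p = 0.0645) and miR-93-5p (-1.59, adjusted p = 0.0749), which share a different seed. The list had a median difference of -1.59, against 0.12 over all tested miRNAs.

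miR-21-5p, which is abundant in tumours and promotes cell survival, read -0.88, -1.46, -2.98 and 0.032 at 0 Gy and -4.60, -3.92, -3.04 and -4.60 at 6 Gy. Every array at 0 Gy was above every array at 6 Gy, by a margin of 0.057 between replicate 3 of each dose. It fell by 2.72 ± 0.66 (SE; limma adjusted p = 0.0304) and was detected on 4 arrays at 0 Gy and 2 at 6 Gy. Its 2 probes gave -3.15 and -2.28. The passenger strand miR-21-3p differed by -0.60 ± 0.22 (SE; adjusted p = 0.057) and did not pass. The other tested names of the colorectal carcinoma list, miR-31-5p (-1.69, adjusted p = 0.0603) and miR-183-5p (-1.19, adjusted p = 0.122), did not pass either.

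miR-29a-3p, which targets collagen and DNA methyltransferase transcripts, read 1.40, 1.68, -1.87 and 1.63 at 0 Gy and -2.96, -0.63, -1.74 and -4.60 at 6 Gy. It fell by 3.20 ± 0.96 (SE; limma adjusted p = 0.0407), and replicate 3 was the single 0 Gy array inside the 6 Gy range. miR-210-3p, which hypoxia induces through HIF1A, read -0.95, -0.53, -3.22 and -0.31 at 0 Gy and -3.72, -2.46, -3.40 and -4.60 at 6 Gy. It fell by 2.29 ± 0.65 (SE; adjusted p = 0.0374), again with 0 Gy replicate 3 alone inside the 6 Gy range. miR-425-5p fell by 2.06 and its other arm, miR-425-3p, differed by 0.15 (adjusted p = 0.307). miR-4286 fell by 1.93 ± 0.43 (SE; adjusted p = 0.0304), and fell by 2.41 (adjusted p = 0.000367) when 0 Gy replicate 3, its lowest array at 0 Gy, was left out.

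The list of 3p arms from the clusters of miR-23, miR-27 and miR-24 had 4 tested members, all below 0. Of these 2 fell (13.4% over all tested), and 0 passed with the spike-in covariate. Outside the list, the tested arm miR-23a-5p differed by 0.14 (limma adjusted p = 0.363). miR-27a-3p, a regulator of lipid metabolism and adipocyte differentiation, read -0.69, -1.63, -3.53 and -1.35 at 0 Gy and -4.60, -2.83, -3.64 and -4.60 at 6 Gy. It fell by 2.12 ± 0.65 (SE; limma adjusted p = 0.0407). miR-27b-3p, with the same seed, fell by 1.26 and was detected on 4 arrays at 0 Gy and 1 at 6 Gy. miR-24-3p read 0.65, -1.19, -4.28 and 0.28 at 0 Gy and -4.60, -3.25, -2.73 and -4.60 at 6 Gy. It was tested through the 0 Gy arrays alone, and its difference of -2.66 had a 95% interval of -5.13 to -0.19 and did not pass (adjusted p = 0.0921), nor did that of miR-23a-3p (-1.52, adjusted p = 0.0671). miR-221-3p, which represses the cell-cycle inhibitor CDKN1B, fell by 1.79 ± 0.52 (SE; adjusted p = 0.0407). miR-222-3p, of the same cluster and seed, did not pass at -1.61 (adjusted p = 0.0636).

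Of the 8 colon epithelium names, which include the miR-200 family that maintains E-cadherin, 2 were tested, 3 others were detected on at least 1 of the 8 arrays, and none passed. miR-200c-3p read -0.53, -0.17, -3.38 and 0.12 at 0 Gy and -4.60, -1.91, -2.86 and -4.60 at 6 Gy, with 0 Gy replicate 3 within the 6 Gy range. Its difference of -2.50 had a limma adjusted p of 0.0514 and a 95% interval of -4.32 to -0.69. miR-141-3p differed by -2.07 (adjusted p = 0.057). The summed scaled signal of both ran from 0.295 to 2.37 at 0 Gy and from 0.0824 to 0.710 at 6 Gy.

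HCT116 cells carry functional p53, and miR-34a is a direct p53 target in irradiated cells. miR-34a-5p read -2.16, -0.93, -4.44 and -0.71 at 0 Gy and -4.60, -2.49, -4.40 and -4.60 at 6 Gy, and the groups overlapped. The difference of -1.96 ± 0.82 (SE) did not pass (limma adjusted p = 0.0867), and its 95% interval was -3.72 to -0.20. It was detected on 4 arrays at 0 Gy and 1 at 6 Gy. miR-145-5p, the other tested member of the p53-responsive list, differed by -0.64 (adjusted p = 0.176), and 10 of the 13 names were detected on none of the 8 arrays.

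Some names on the array belong to fragments of other non-coding RNAs. In this list all 7 tested members were below 0, with a median of -1.15, and 4 fell (13.4% over all tested). With no scaling and with scaling over all human probes, 5 were below 0 and 2 above, with medians of -0.90 and -0.72, and with quantile normalization 6 were below and 1 above. miR-1246, which matches a piece of the U2 spliceosomal RNA, read 1.75, 1.28, -0.12 and 1.72 at 0 Gy and -1.12, -0.42, 0.61 and -2.34 at 6 Gy. It fell by 1.97 ± 0.58 (SE; limma adjusted p = 0.0407) and was detected on all 8 arrays, as was miR-1290, which fell by 1.19. miR-1260b read -1.11, -2.59, -2.53 and -2.23 at 0 Gy and -2.82, -3.05, -3.31 and -3.89 at 6 Gy, without overlap. It fell by 1.15 ± 0.30 (SE; adjusted p = 0.0341). miR-1274a_v16.0, a piece of a lysine transfer RNA, fell by 1.67 and was detected on 1 array at 6 Gy.

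Within the miR-320 family, which is made without the nuclear enzyme DROSHA, 2 of 5 tested members fell (13.4% over all tested), and with scaling over all human probes 2 passed as lower and 2 as higher. miR-320d read 0.33, 1.23, -0.41 and 0.85 at 0 Gy and -0.91, -0.10, -0.64 and -1.80 at 6 Gy, with 0 Gy replicate 3 within the 6 Gy range. It fell by 1.37 ± 0.38 (SE; limma adjusted p = 0.0353), and miR-320e fell by 1.35 ± 0.35 (SE; adjusted p = 0.0341). miR-320a read 0.38, 0.62, 0.68 and 0.51 at 0 Gy and 0.50, 0.61, 0.36 and 0.47 at 6 Gy. Its difference was -0.061, with a 95% interval of -0.25 to 0.13, and turned positive in the absence of scaling (0.19), with Agilent's total signal (0.070) and with scaling over all human probes (0.37, where its adjusted p was 0.0439). The difference of miR-320b was -0.47 (adjusted p = 0.0964), and that of miR-320c was 0.30 (adjusted p = 0.333).

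A list of 18 names from the imprinted 14q32 region had 1 rise and 2 falls among 5 tested (6.01% and 13.4% over all tested). With scaling over all human probes it had 3 rises and 1 fall. The list does not hold every tested miRNA of the region, and miR-665 is outside it. miR-494-3p read 4.18, 3.27, 2.46 and 3.92 at 0 Gy and 2.21, 2.26, 1.90 and 0.88 at 6 Gy, with no overlap and no array near the floor. It fell by 1.64 ± 0.46 (SE; limma adjusted p = 0.0353). miR-134-5p, known for its role in neurons, read 1.64, 2.07, 2.13 and 2.14 at 0 Gy and 2.33, 2.59, 2.48 and 2.79 at 6 Gy. It rose by 0.55 ± 0.13 (SE; adjusted p = 0.0304), its groups stood 0.19 apart, and its 2 probes gave 0.56 and 0.54. miR-539-5p fell by 0.34 at levels close to the floor, and its difference was 0.029 with scaling over all human probes. The differences of miR-770-5p (0.39, adjusted p = 0.195) and miR-370-3p (0.22, adjusted p = 0.223) did not pass.

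The miR-30 family had called members in both directions. miR-30e-5p read -2.60, -3.41, -4.13 and -2.98 at 0 Gy and lay at the floor of -4.60 on all 4 arrays at 6 Gy, on 2 of which it was still detected. It fell by 1.32 ± 0.27 (SE; limma adjusted p = 0.0304). miR-30d-5p, the other tested 5p arm, differed by -0.23 (adjusted p = 0.544) and turned positive in the absence of scaling (0.024), with scaling over all human probes (0.21) and with spike-in level as a covariate (0.11). On the 3p arms, miR-30c-1-3p read -3.10, -3.04, -2.71 and -3.05 at 0 Gy and -2.39, -2.32, -2.63 and -1.19 at 6 Gy. Its rise of 0.84 ± 0.26 (SE; adjusted p = 0.0407) was the largest of the comparison, with groups 0.079 apart and 6 Gy replicate 4 above the rest. miR-30c-2-3p, which has the same seed, did not pass at 0.54 (adjusted p = 0.0568).

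The other rises were small. miR-601 read -0.49, -0.0067, 0.010 and -0.027 at 0 Gy and 0.22, 0.44, 0.25 and 0.50 at 6 Gy, without overlap, and rose by 0.48 ± 0.11 (SE; limma adjusted p = 0.0304). miR-765 read -1.61, -1.25, -1.13 and -1.35 at 0 Gy and -0.97, -0.79, -1.004 and -0.13 at 6 Gy, also without overlap, and rose by 0.61 ± 0.18 (SE; adjusted p = 0.0407). miR-711 rose by 0.66 and miR-3195 by 0.62, and for both 0 Gy replicate 3 lay inside the 6 Gy range. miR-150-3p, the passenger strand of a lymphocyte miRNA, rose by 0.52, miR-557 by 0.47 and miR-1207-5p by 0.45. miR-1226-5p, which is spliced from an intron rather than cut by DROSHA, and miR-422a each rose by 0.40. miR-1254 rose by 0.39 from near the floor, and with normexp background correction its difference was -0.028. Groups did not overlap for 26 of the 283 tested miRNAs (9.19%), 16 higher (5.65%) and 10 lower (3.53%). Of these, 10 were among the 17 rises and 10 among the 38 falls.

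**Figure D3:**
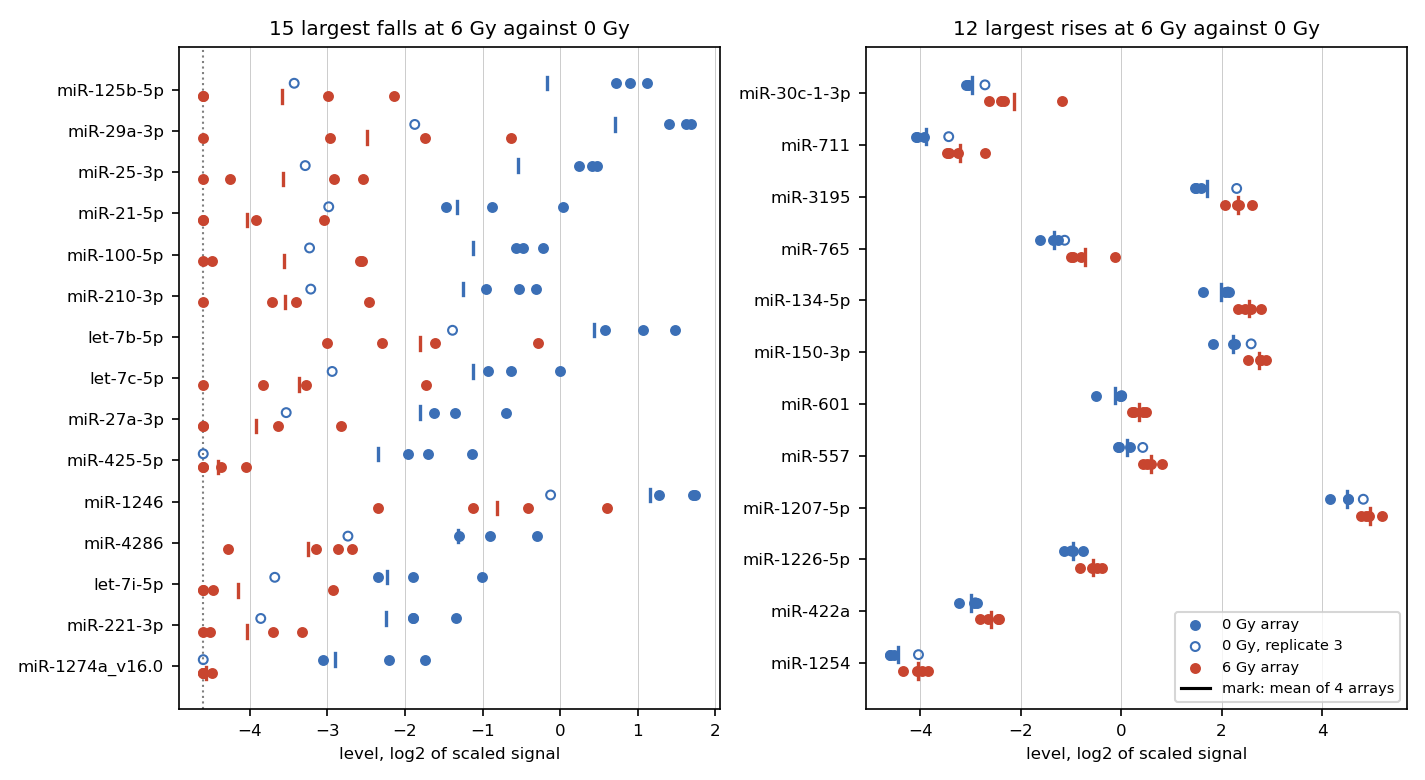
Levels of the 15 largest falls (left) and 12 largest rises (right), as log2 of scaled signal on the x axis, with a point for each array at 0 Gy (blue, open for replicate 3) and 6 Gy (red), a mark at the mean of 4 and a dotted line at the floor of -4.60. In the left panel 0 Gy replicates 1, 2 and 4 lie to the right of all 6 Gy arrays, and replicate 3 lies among or next to them.

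A few further calls were chosen after their values were seen, for groups that did not overlap or for a shared seed. miR-574-5p read 0.33, 0.10, -0.19 and 0.19 at 0 Gy and -1.003, -0.41, -0.37 and -0.53 at 6 Gy, and fell by 0.69 ± 0.16 (SE; limma adjusted p = 0.0304). miR-4299 fell by 1.19, miR-4284 by 1.24 and miR-3149 by 0.65, each without overlap. miR-196a-5p and miR-196b-5p, which lie in HOX gene clusters and share a seed, fell by 0.73 and 0.77, each with 3 of 4 arrays at 6 Gy at the floor. Among the 3 tested miR-181 miRNAs with 1 seed, miR-181b-5p fell by 0.86, while miR-181a-5p (-1.32, adjusted p = 0.0594) and miR-181d-5p (-0.23, adjusted p = 0.149) did not pass. miR-769-3p rose by 0.39 and miR-3610 by 0.36, both without overlap.

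Of the 5 brightest miRNAs, 1 passed, against 19.4% of all tested. miR-4281 read 6.71, 6.47, 7.34 and 6.82 at 0 Gy and 7.21, 6.95, 7.49 and 7.48 at 6 Gy, and its difference of 0.44 did not pass (limma adjusted p = 0.14). Neither did the differences of miR-762 (0.21, adjusted p = 0.0671), miR-1225-5p (0.25, adjusted p = 0.139) and miR-1202 (0.31, adjusted p = 0.16), and miR-1207-5p passed. With quantile normalization the differences of miR-762 and miR-1225-5p were -0.093 and -0.063. A list of 17 chromosome 19 names, of miRNAs normally expressed in embryonic cells and placenta, had 4 tested members. They had a median of 0.30 and none passed. The list leaves out other tested miRNAs of that region, such as miR-520b. The differences of the 4 were 0.61 for miR-516a-5p (adjusted p = 0.0514), 0.35 for miR-373-5p (adjusted p = 0.0636), 0.26 for miR-371a-5p (adjusted p = 0.193) and 0.15 for miR-498 (adjusted p = 0.346). That of miR-498 was -0.052 with normexp.

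Markers of cell types other than HCT116 were few. Of 6 white blood cell names, miR-155-5p alone was tested and the other 5 were detected on none of the 8 arrays. It read -3.21, -2.94, -2.84 and -2.94 at 0 Gy and -2.88, -2.63, -2.62 and -2.58 at 6 Gy, and rose by 0.31 ± 0.095 (SE; limma adjusted p = 0.0407). Of 4 red blood cell names, 3 were undetected, and miR-486-5p differed by 0.21 (adjusted p = 0.142). The summed scaled signal of the 3 tested muscle miRNAs ran from 0.201 to 0.226 at 0 Gy and from 0.173 to 0.241 at 6 Gy. Their differences were -0.53 for miR-206 (adjusted p = 0.0568), 0.31 for miR-133a-3p (adjusted p = 0.223) and 0.31 for miR-133b (adjusted p = 0.213). Both arms of miR-126, of platelets and endothelium, were undetected, and miR-122-5p, of liver, was detected on at least 1 of the 8 arrays but not tested. None of the 5p arms listed for the miR-15 and miR-16 family was tested.

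Among the 228 miRNAs that did not pass, 142 were above 0 and 86 below, and 60 had a limma adjusted p under 0.1. Beyond 1 on the log2 scale, 15 were lower and 0 higher. Apart from those named, the 15 include miR-193b-3p (-1.64, adjusted p = 0.0603), miR-361-5p (-1.54, adjusted p = 0.0636) and miR-132-3p (-1.18, adjusted p = 0.124), singled out after their values were seen.

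The order of arrays was alike across the called miRNAs. In 36 of the 38 falls the lowest array at 0 Gy was replicate 3, and in 14 of the 17 rises the highest was. In 28 of the 38 falls it lay within or past the 6 Gy range, while 0 Gy replicates 1, 2 and 4 lay above all 6 Gy arrays in all 38. At 6 Gy, replicate 4 was the lowest array, ties at the floor included, in 33 of the 38 falls and the highest in 12 of the 17 rises. These are the arrays on which no labelling spike-in was detected. With spike-in level as a covariate, limma called 29 miRNAs (21 lower, 8 higher), of which 19 were among the 38 falls and 8 among the 17 rises. For 0 Gy replicate 3 and 6 Gy replicate 4 the covariate is the value written for no detection. For 6 Gy replicate 1 and 2 Gy replicate 1 it averages that value with a reading. On these arrays the covariate fit therefore does not adjust for a measured labelling level. In that fit miR-21-5p differed by -1.99, miR-29a-3p by -1.99, let-7b-5p by -1.46 and miR-134-5p by 0.47, and these passed. Those that did not pass included miR-125b-5p, the largest fall (-2.12, adjusted p = 0.0525), miR-25-3p (-1.92, adjusted p = 0.0505) and miR-100-5p (-1.47, adjusted p = 0.0656). Nor did let-7c-5p (-1.44, adjusted p = 0.0525), let-7i-5p (-1.40, adjusted p = 0.0519), miR-27a-3p (-1.34, adjusted p = 0.0505) or miR-30c-1-3p, the largest rise (0.59, adjusted p = 0.0903). The differences of all 55 were smaller in size with the covariate, with medians of -0.95 for the falls and 0.36 for the rises. Leaving out both arrays, a setting chosen after seeing the data, 135 were called (71 lower, 64 higher), and 54 of the 55 were among them.

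Leaving out 0 Gy replicate 3 alone, singled out after its values were seen, enlarged the falls. It was the lowest 0 Gy array in 36 of the 38, so its removal enlarges those by construction. Leaving out 0 Gy replicate 1, 2 or 4 instead gave 0 calls. With replicate 3 left out, let-7b-5p fell by 2.85 (limma adjusted p = 0.00304), miR-125b-5p fell by 4.50 (adjusted p = 0.0028) and miR-29a-3p fell by 4.06 (adjusted p = 0.00346). miR-34a-5p, which had not passed, differed by -2.75 (adjusted p = 0.00782), miR-24-3p by -3.71 (adjusted p = 0.0105) and miR-200c-3p by -3.30 (adjusted p = 0.0037). miR-320a differed by -0.016 (adjusted p = 0.872).

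**Figure D4:**
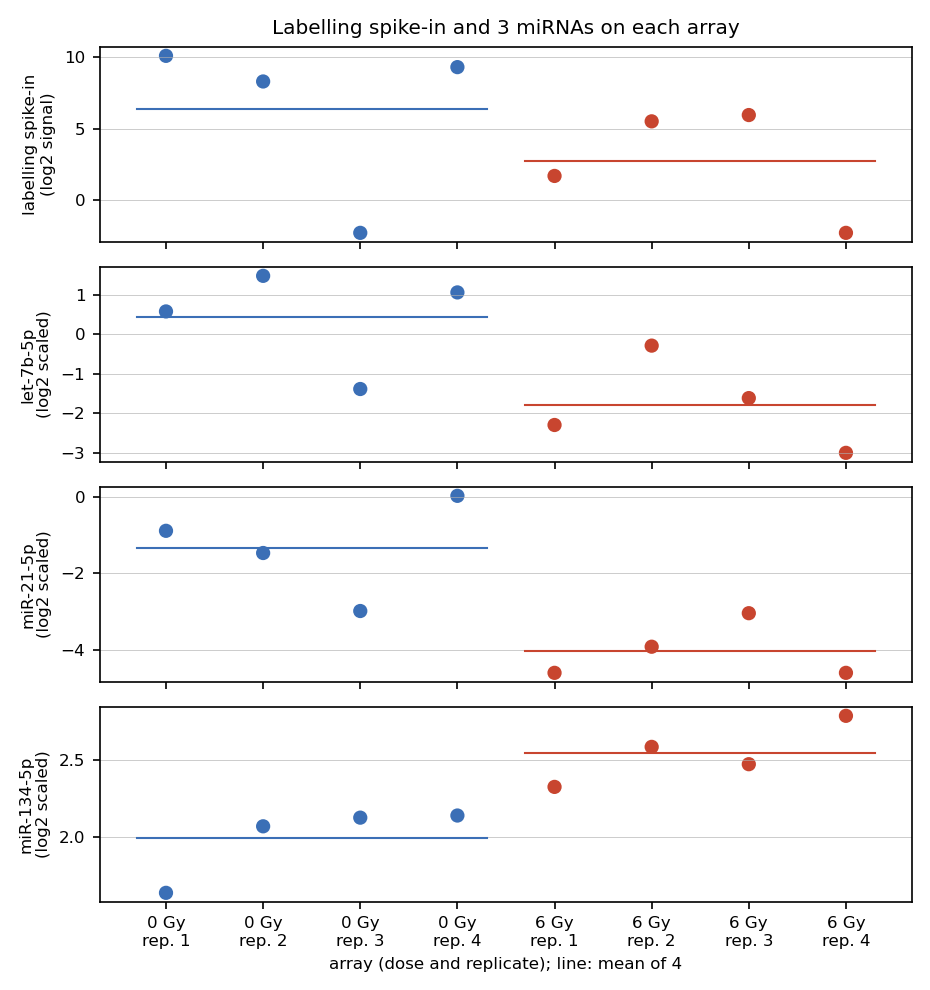
Labelling spike-in (top, log2 signal) and the levels of let-7b-5p, miR-21-5p and miR-134-5p (log2 of scaled signal) on each of the 8 arrays, blue at 0 Gy and red at 6 Gy, with a line at the mean of 4. The spike-in is at -2.32 on 0 Gy replicate 3 and 6 Gy replicate 4, where let-7b-5p is lowest within its dose.

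The same miRNAs were read at 2 and 10 Gy, in comparisons that use the same 0 Gy arrays, so the 3 are not independent and no test between them was made. The series' design text names the doses 0, 6 and 10 Gy only, and the 2 Gy arrays are known by their labels. At 2 Gy, on the slide of the 0 Gy arrays, 36 of 283 miRNAs passed (12.7%), among them 18 of the 38 falls and 5 of the 17 rises. At 10 Gy, on the slide of the 6 Gy arrays, 1 of 283 passed (0.353%) and it was not among the 55. The 38 falls had median differences of -1.17 at 2 Gy, -1.29 at 6 Gy and -0.75 at 10 Gy, and 36 of them were nearer to 0 at 10 Gy than at 6 Gy. let-7b-5p differed by -1.32, -2.24 and -0.84 at 2, 6 and 10 Gy. miR-125b-5p differed by -3.53, -3.41 and -1.24, and miR-210-3p by -1.53, -2.29 and -0.85. The rises had medians of 0.32, 0.45 and 0.37, with 0.49, 0.55 and 0.52 for miR-134-5p and 0.45, 0.48 and 0.45 for miR-601. The miRNAs were picked at 6 Gy, which favours larger values there. The labelling spike-in also differed between the doses. It read 6.85, 9.02, 7.58 and 6.06 on replicates 1 to 4 at 10 Gy, each above every 6 Gy array. It ran from -2.32 to 5.95 at 6 Gy and from 1.02 to 6.97 at 2 Gy. Whether the smaller falls at 10 Gy go with the labelling or with the dose was not tested.

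**Figure D5:**
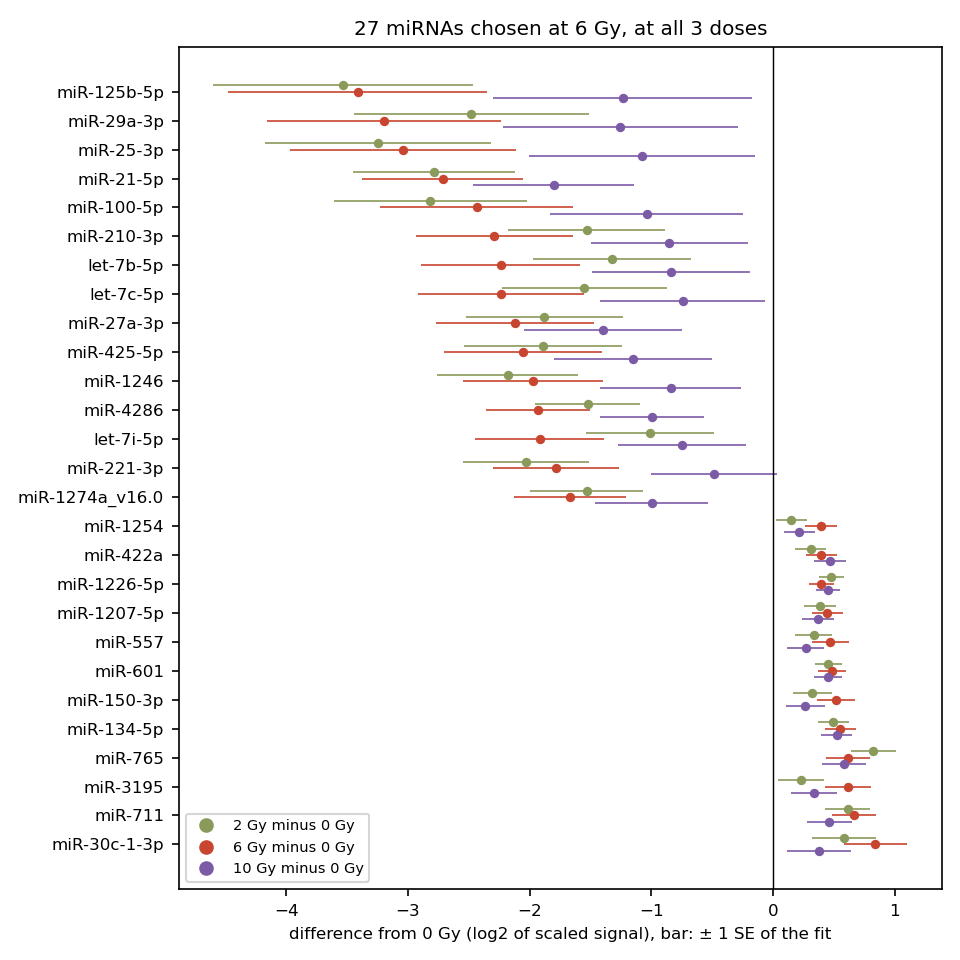
Differences from 0 Gy (log2 of scaled signal, bars of ± 1 SE of the fit) at 2, 6 and 10 Gy for the 27 miRNAs with the largest falls and rises called at 6 Gy. The 15 falls are nearer to 0 at 10 Gy, as for let-7b-5p at -0.84 against -2.24 at 6 Gy.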

How the data were processed

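Each deposited file is a single-colour Agilent miRNA array from Feature Extraction 11.5.1.1, according to its header. The signal used is an intensity that the authors' software had corrected for background and left unscaled between arrays, per the file headers. The software's flags, deposited beside it, mark outlying spots (3.27 to 4.90% per array) and signal well above background, and no spot was saturated. Controls and outliers were dropped, and spots of a probe were averaged. Detection of a probe meant that over 0.5 of its spots were flagged so. The scaling factor was the 75th percentile of the 518 probes found on all 16 arrays. A floor, taken as the 5th percentile of detected probes (median of the 16 arrays), was applied before log2. Passing probes of a miRNA were averaged, leaving 592 probes and 283 miRNAs. Scaling removes a change shared by all miRNAs. The number of arrays and the spread between them limit the precision.

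All 16 arrays entered a limma 3.58.1 fit (R 4.3.3) with a mean per dose and Benjamini-Hochberg adjustment over the 283, tested beforehand on simulated data. Values with 1 number per array had exact two-sided permutation tests. The 22 lists of 152 names (147 on the array, 55 tested) and the miRNAs named were chosen with earlier results of these data known. The naming rule took the 15 largest falls and 12 largest rises that passed with all 4 arrays of 1 dose on one side of the other's mean. It also took list members (all of up to 6 tested, otherwise the 4 largest differences), the 5 brightest, those detected on all 4 arrays of 1 dose and at most 1 of the other, and those sharing a seed or hairpin with a named call. Figures used matplotlib 3.10.9. Alternatives covered scaling, background, floor, filter, probe choice, covariates and left-out arrays.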

Additional observations from a re-analysis of the deposited data

Results flagged for a closer look

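Among 60 groups of 4 arrays examined, 13 held an array whose gap to the nearest other exceeded Dixon's 95% limit, which chance gives in about 1 in 20. At 0 Gy, replicate 3 stood apart for miR-125b-5p (-3.43), miR-29a-3p (-1.87), miR-25-3p (-3.29), miR-100-5p (-3.23), miR-30c-1-3p (-2.71), miR-3195 (2.30) and miR-1254 (-4.04), and for the labelling spike-in (-2.32). Replicate 1 at 0 Gy stood apart for miR-134-5p (1.64), miR-601 (-0.49) and miR-422a (-3.23). At 6 Gy, replicate 2 stood apart for let-7i-5p (-2.93) and for miR-1274a_v16.0 (-4.48), whose other 3 arrays were at the floor. These groups share arrays, so the 13 are not independent.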

How the results depend on the processing

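The count of 55 calls (17 higher, 38 lower) was 183 (155 higher) with scaling over all human probes, 109 (73 higher) with quantile normalization, 111 (72 higher) with Agilent's total signal, 34 (8 higher) with normexp, 35 (20 lower) of 217 tested with probes detected on all 16 arrays and 29 (8 higher, 21 lower) with the spike-in covariate. It was 135 (64 higher, 71 lower) when both arrays lacking the spike-in were left out, as chosen after seeing the data. limma called 0 in the absence of scaling (62 at unadjusted p under 0.05), with no filter on dim probes (166) and with 8 arrays alone (75). With 1 array left out, calls ran from 0 to 143, 0 to 68 higher and 0 to 75 lower. The brightest probe per miRNA gave 66 and a lower floor 55. The main fit did not pair arrays by replicate number. Deviations of same-numbered 0 and 6 Gy arrays correlated at -0.11, 0.82, -0.66 and -0.58, and not every array correlated best with its own number. The arrays of 0 Gy replicate 3 and 6 Gy replicate 4, both lacking the spike-in, correlated at 0.71. Such correlations cannot show whether cultures were paired by number. The replicate block gave 75 calls. Differences that changed sign were 0.21, 0.024, 0.11 and, with 1 array left out, -0.46 to 0.15 for miR-30d-5p (all probes, no scaling, spike-in covariate), 0.37, 0.19 and 0.070 for miR-320a (all probes, no scaling, total signal), 0.029 for miR-539-5p and 0.053 for miR-663a (all probes), -0.039 for miR-320c (spike-in covariate), -0.093 for miR-762 and -0.063 for miR-1225-5p (quantile). With normexp they were -0.028 for miR-1254, -0.028 for miR-3161, -0.052 for miR-498, -0.038 for miR-133b, -0.017 for miR-486-5p, -0.069 for let-7b-3p and -0.038 for miR-425-3p. The cause was not tested. Signal near background limits the falls that reached the floor.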

Other observations

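Counted over miRNAs, detection leaned the same way as the falls, but the miRNAs share the same arrays and are not independent. The difference in the number detected per array did not pass (exact two-sided permutation p = 0.143, adjusted 0.343). Of 1205 human miRNAs, 403 were detected on at least 1 of the 8 arrays and 226 on all 8. Of the 403, 104 were detected on more arrays at 0 Gy, 49 on more at 6 Gy and 250 on equal numbers. None was detected on all 4 arrays of 1 dose and on none of the other. Among tested miRNAs, 4 were detected on all 4 arrays at 0 Gy and at most 1 at 6 Gy, namely miR-27b-3p, miR-34a-5p, miR-1274a_v16.0 and miR-1273d, the last at -0.45 (limma adjusted p = 0.0671). Called miRNAs were spread over the range of signal. By level at 0 Gy, falls made up 10.6% of the dimmest 94 tested miRNAs, 13.8% of the next 94 and 15.8% of the brightest 95, and rises 3.19%, 5.32% and 9.47%.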
